A study of Mus musculus with 23 samples.

Results

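Pet112, Fam160a1, Glt28d2 and Sh3d19 are 4 neighbouring genes on mouse chromosome 3 whose RNA was lower in the ventral prostate of mice on a folic acid enriched diet than in that of mice on a control diet. They are 4 of the 20308 genes in the deposited table. They were chosen from the diet difference itself, so their diet values are given as a description with no test, and tests are kept for castration and for how the genes varied between libraries of the same group. All mice were C57BL/6J. The folic acid mice received 24 mg folic acid per kg of diet and the control mice 4 mg per kg, from before birth onwards. At 7 weeks of age mice were either killed intact, or castrated and killed 3 d or 10 d later. The folic acid diet had 4 intact libraries, 4 at 3 d and 4 at 10 d, and the control diet had 4, 3 and 4. Castrated mice were older than intact mice at collection and no group was sham-operated, so effects of androgen loss, surgery and age cannot be told apart. Litters are not given in the labels used here, so effects of diet and of litter cannot be told apart either.

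The ventral prostate is a secretory gland that depends on testicular androgens and shrinks after castration. The 4 genes act in different processes. Pet112, now named Gatb, encodes the B subunit of the mitochondrial amidotransferase GatCAB, which converts glutamate on glutamine tRNA into glutamine so that mitochondria can make proteins. Fam160a1 belongs to the FHIP family, whose members bind FTS and Hook proteins, the adaptors that link endosomes to the dynein motor. Glt28d2 is a relative of Alg13, the catalytic part of the enzyme that adds N-acetylglucosamine to the dolichol-linked precursor of N-glycans. Sh3d19 encodes an SH3 domain adaptor which in human cells binds the tails of ADAM proteases, the enzymes that shed growth factor ligands from the cell surface.

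On GRCm38 (GENCODE M21) Pet112 occupies chr3:85574119-85655622 on the plus strand. Fam160a1 occupies chr3:85660061-85817291 on the minus strand, so that both genes end towards each other with 4.4 kb between them. Glt28d2 follows on the minus strand at chr3:85869849-85887516 after a gap of 52.6 kb, and Sh3d19 on the plus strand at chr3:85971109-86130526 after a gap of 83.6 kb. The whole stretch measures 556 kb, and the lower ends of the 4 genes lie within 397 kb. No other gene between the outermost ends passed the filter on low counts: Prss48, a protease gene on the opposite strand within Sh3d19, had at most 5 reads in any library. The annotation also holds a long gene model on the minus strand, Gm37240 (chr3:84496426-85887518). Its span starts inside the neighbour Arfip1 and covers the genes from there to Glt28d2, Pet112 and Fam160a1 among them. Of the 50-base stretches in the transcripts of Glt28d2, 12.7% also occur in Gm37240 and 0.373% in Alg13. The shares for Fam160a1 and Gm37240 and for Sh3d19 and its closest match were 3.39% and 0.485%, and Pet112 shared none. The sources used here do not say whether counting used the strand.

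The start regions of 3 of the genes were read from RefSeq (GRCm38.p6, 250 bases before to 50 after the start). They are shown because the genes lie side by side and had the same direction of difference. The windows are chr3:85746160-85746459 (minus strand) for Fam160a1, chr3:85887469-85887768 (minus strand) for Glt28d2 and chr3:85970868-85971167 (plus strand) for Sh3d19. The RefSeq start of Fam160a1 lies inside its GENCODE span. Capitals mark matches, on either strand, to CCAAT and TATAAA in Fam160a1 and to GGGCGG in Glt28d2 and Sh3d19.
Fam160a1: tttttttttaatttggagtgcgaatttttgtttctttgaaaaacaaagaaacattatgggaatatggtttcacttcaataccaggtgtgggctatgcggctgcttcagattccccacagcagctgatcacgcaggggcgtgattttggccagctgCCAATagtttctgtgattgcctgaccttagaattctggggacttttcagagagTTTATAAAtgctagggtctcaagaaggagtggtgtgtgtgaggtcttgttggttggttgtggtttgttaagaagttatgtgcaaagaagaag
Glt28d2: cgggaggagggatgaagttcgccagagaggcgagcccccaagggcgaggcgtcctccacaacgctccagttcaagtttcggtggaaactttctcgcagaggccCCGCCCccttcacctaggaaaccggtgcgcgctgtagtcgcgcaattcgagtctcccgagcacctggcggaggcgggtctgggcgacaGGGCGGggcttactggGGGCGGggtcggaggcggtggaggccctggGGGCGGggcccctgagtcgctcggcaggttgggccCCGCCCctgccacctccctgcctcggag
Sh3d19: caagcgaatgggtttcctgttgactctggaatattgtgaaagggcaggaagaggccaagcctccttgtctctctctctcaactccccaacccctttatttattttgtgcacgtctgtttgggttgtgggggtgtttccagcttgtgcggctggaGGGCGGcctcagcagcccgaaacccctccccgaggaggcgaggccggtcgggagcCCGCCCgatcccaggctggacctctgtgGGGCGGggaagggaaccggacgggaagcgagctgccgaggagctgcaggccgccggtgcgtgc
The 3 windows differed in base composition. Glt28d2 had 28 CG dinucleotides and 70.3% G or C, Sh3d19 had 19 and 63%, and Fam160a1 had 4 and 42%. At least 28 CG dinucleotides were found in 14.2% of the 32851 promoters of the same table, at least 19 in 28.1% and at least 4 in 68.6%. GGGCGG occurred 5 times in Glt28d2 and 3 times in Sh3d19, and at least once in 35.7% of all promoters. CCAAT occurred 1 time and TATAAA at 2 overlapping places on opposite strands in Fam160a1, against 37.4% and 13.6% of all promoters with a match. None of the 3 windows held CACGTG (7.15% of all promoters), TGACGTCA (1.79%), AGAACA (19%) or the full palindrome of the androgen receptor's consensus site, of which AGAACA is one arm (0.00913%). These matches are letters in a window, and no binding was measured.

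Total counts per library ranged from 6.38 to 15.6 M reads. The androgen-dependent secretory gene Sbp took between 4.78% and 59.8% of them, less after castration, and the TMM scaling factors ranged from 0.553 to 1.69. Levels below are CPM, normalised read counts as shares of the library total scaled by these factors, which hold the bulk of genes level between libraries. Over the 23 libraries the 4 genes had 4533 (Pet112), 8562 (Fam160a1), 3835 (Glt28d2) and 22373 (Sh3d19) estimated reads in all, and the lowest count of any of them in a library was 33. The luminal epithelial markers were present in every library, with summed levels from 3970 to 6810 CPM that overlapped between diets in each state, and seminal vesicle markers summed to at most 1.72 CPM. Control intact replicate 2 stood apart in skeletal muscle markers (3670 CPM, against 0.856 to 144 in the other libraries). In smooth muscle markers, folic acid intact replicate 3 and folic acid 10 d replicate 3 had the lowest sums (333 and 462 CPM) and folic acid 10 d replicate 2 the highest (2660 CPM). The others lay between 501 and 2170 CPM, so the sum of folic acid 10 d replicate 3 was close to the next lowest. The results were recomputed with these 4 libraries set aside, a choice made after seeing the data.

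**Figure D1:**
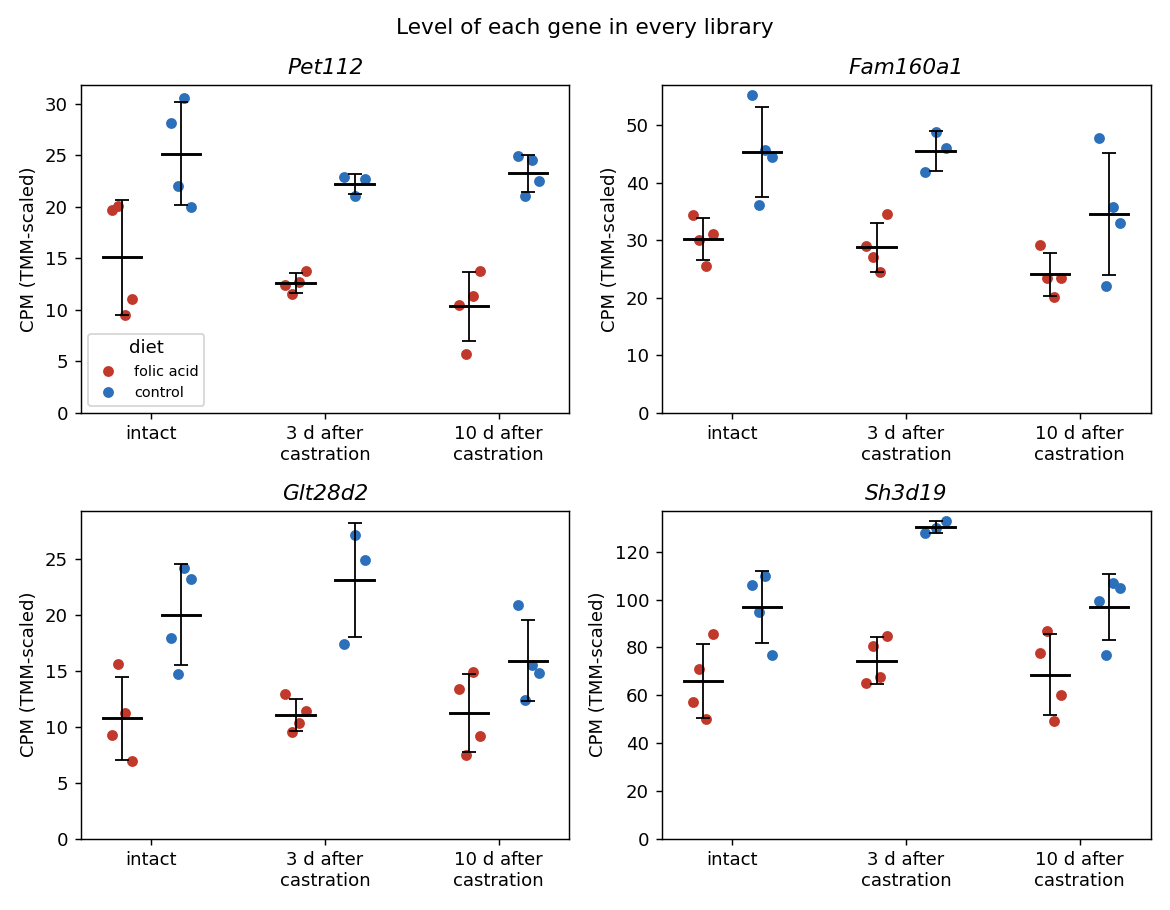
Level of Pet112, Fam160a1, Glt28d2 and Sh3d19 (TMM-scaled CPM, linear axis from 0) in each of the 23 libraries, by state, with folic acid libraries left of control libraries; horizontal lines are group means and bars are SDs. At 3 d all folic acid libraries lie below all control libraries for each of the 4 genes.

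Pet112 was at 53.4% of the control level on the folic acid diet over the 3 states, a log2 difference of -0.90 ± 0.15 (SE). In intact mice it had 19.7, 20.1, 9.5 and 11.1 CPM on the folic acid diet, against 28.1, 22, 30.6 and 20 CPM on the control diet. The diets overlapped, since 1 folic acid library (20.1) lay just above the lowest control library (20). At 3 d it had 12.4, 11.5, 12.7 and 13.8 CPM in folic acid mice, against 22.9, 21.1 and 22.7 CPM in control mice. At 10 d it had 10.5, 5.74, 11.3 and 13.8 CPM in folic acid mice, against 24.9, 21.1, 24.6 and 22.5 CPM in control mice. At both times every folic acid library was below every control library. The group means (± SD) were 15.1 ± 5.58 and 25.2 ± 5.02 CPM in intact mice on the folic acid and the control diet, 12.6 ± 0.978 (n = 4) and 22.2 ± 0.975 (n = 3) at 3 d, and 10.3 ± 3.38 and 23.3 ± 1.81 at 10 d (n = 4 where not given). Its control means in the 3 states lay closer together than the SD of the intact group. The log2 difference between diets was -0.73 ± 0.25 in intact mice, -0.82 ± 0.27 at 3 d and -1.17 ± 0.25 at 10 d.

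Glt28d2 was at 56.8% of the control level on the folic acid diet over the 3 states (-0.82 ± 0.16). In intact mice it had 9.22, 15.6, 11.2 and 6.91 CPM on the folic acid diet, against 17.9, 14.7, 24.2 and 23.2 CPM on the control diet. Here 1 folic acid library (15.6) was above the lowest control library (14.7). At 3 d it had 12.9, 9.54, 10.3 and 11.4 CPM in folic acid mice, against 17.4, 27.1 and 24.9 CPM in control mice, with no overlap. At 10 d it had 13.4, 7.47, 14.9 and 9.15 CPM in folic acid mice, against 20.9, 12.4, 15.5 and 14.8 CPM in control mice, and the groups overlapped. The means were 10.7 ± 3.7 and 20 ± 4.46 CPM in intact mice on the folic acid and the control diet, 11.1 ± 1.47 and 23.1 ± 5.11 at 3 d, and 11.2 ± 3.5 and 15.9 ± 3.62 at 10 d (SD, same n as above). The folic acid means of the 3 states lay closer together than the SD of any of them. The diet difference was -0.89 ± 0.27 in intact mice, -1.06 ± 0.28 at 3 d and -0.50 ± 0.27 at 10 d. Of the 23 counts of Glt28d2, 52.2% were not whole numbers, against 43.5% for Pet112, which shared no stretch with another gene. The share was 19.5% for all values in the table, which include those of 3398 genes without reads. These shares do not say how many reads were divided between genes. Its relative Alg13, with which it shares a few stretches, had between 0 and 54 reads per library, and 1.26, 1.84 and 1.98 CPM on the folic acid diet in intact, 3 d and 10 d mice against 2.49, 1.52 and 2.03 CPM on the control diet.

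Sh3d19, the gene with the most reads of the 4, was at 65% of the control level on the folic acid diet (-0.62 ± 0.10). In intact mice it had 57.1, 70.9, 50.2 and 85.4 CPM on the folic acid diet, against 106, 94.8, 110 and 76.7 CPM on the control diet. Here 1 folic acid library (85.4) exceeded the lowest control library. At 3 d it had 65.1, 80.7, 67.4 and 84.7 CPM in folic acid mice, against 128, 130 and 133 CPM in control mice. The 3 control libraries were close together and the groups were far apart. At 10 d it had 77.8, 86.9, 49.4 and 60.0 CPM in folic acid mice, against 99.2, 76.7, 107 and 105 CPM in control mice, and 2 folic acid libraries were above the lowest control library. The means were 65.9 ± 15.6 and 96.9 ± 15 CPM in intact mice on the folic acid and the control diet, 74.5 ± 9.67 and 130 ± 2.64 at 3 d, and 68.5 ± 16.9 and 96.9 ± 13.8 at 10 d. The diet difference was -0.56 ± 0.18 in intact mice, -0.81 ± 0.19 at 3 d and -0.50 ± 0.18 at 10 d.

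Fam160a1 was at 66.5% of the control level on the folic acid diet (-0.59 ± 0.12). In intact mice it had 34.4, 30.1, 25.5 and 31.0 CPM on the folic acid diet, against 55.2, 36.1, 45.6 and 44.5 CPM on the control diet, with no overlap. At 3 d it had 28.9, 27.1, 24.5 and 34.6 CPM in folic acid mice, against 41.8, 48.7 and 46.0 CPM in control mice, again with no overlap. At 10 d it had 29.2, 23.5, 20.1 and 23.4 CPM in folic acid mice, against 47.8, 22, 35.7 and 32.9 CPM in control mice. Here the lowest control library lay among the folic acid libraries. The means were 30.2 ± 3.69 and 45.4 ± 7.81 CPM in intact mice on the folic acid and the control diet, 28.8 ± 4.28 and 45.5 ± 3.46 at 3 d, and 24.0 ± 3.8 and 34.6 ± 10.6 at 10 d. The diet difference was -0.58 ± 0.20 in intact mice, -0.66 ± 0.21 at 3 d and -0.52 ± 0.20 at 10 d.

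All 4 genes thus had lower means on the folic acid diet in each of the 3 states. With the mean over states, 41 of 13412 genes tested (0.306%) were lower on the folic acid diet at an adjusted p under 0.05 (edgeR's quasi-likelihood test, Benjamini-Hochberg) and the 4 genes were among them. Since the genes were chosen from diet differences, this count is no evidence about them. Every folic acid library was below every control library for 4 of the 4 genes at 3 d (3.54% of all genes tested), for Fam160a1 alone in intact mice (2.59%) and for Pet112 alone at 10 d (1.57%). The difference between diets at 3 d minus that in intact mice was -0.09 ± 0.37 for Pet112, -0.08 ± 0.29 for Fam160a1, -0.18 ± 0.39 for Glt28d2 and -0.25 ± 0.26 for Sh3d19. At 10 d the corresponding values were -0.45 ± 0.35, 0.06 ± 0.28, 0.39 ± 0.38 and 0.06 ± 0.25. They are given as a description, since diet contrasts were used in choosing the genes. Without the 4 libraries set aside the mean diet differences were -0.79, -0.55, -0.86 and -0.58 in the same order of genes, and leaving out any 1 library kept them between -0.96 and -0.52.

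Markers of other cell types were set beside these values. In a whole gland, fewer cells of a type and less RNA per cell cannot be told apart. At 3 d, when the diets did not overlap for any of the 4 genes, macrophage markers (5 of 6 in the table) summed to 32.1 to 55.3 CPM in folic acid mice and 61.6 to 104 CPM in control mice. Fibroblast markers summed to 225 to 523 CPM in folic acid mice and 499 to 930 CPM in control mice, and endothelial markers to 10.2 to 20.4 CPM in folic acid mice and 18.2 to 33.9 CPM in control mice, both with some overlap. Lymphocyte markers (3 of 6 above the filter on low counts) summed to 10.1 to 16.3 CPM in folic acid mice and 15.8 to 19.7 CPM in control mice. Urothelial markers went the other way (2 of 4 above the filter on low counts). They summed to 244 to 318 CPM in folic acid mice and 189 to 213 CPM in control mice, with no overlap. Smooth muscle markers overlapped between diets at 3 d (501 to 1510 CPM in folic acid mice, 691 to 1500 CPM in control mice). So did basal epithelial markers (96.4 to 217 and 133 to 302 CPM, same order) and nerve and Schwann cell markers (8.96 to 14.9 and 9.58 to 10.7 CPM). The part of these cell types in the diet differences was not tested. No macrophage marker in the table and no fibroblast or endothelial marker was at 0 in any group, while 2 of the 6 lymphocyte markers were at 0 in folic acid mice and 3 in control mice at 3 d, and 1 of the 4 urothelial markers on both diets. The macrophage sums overlapped in intact mice (16.1 to 26.9 CPM on the folic acid diet, 18.1 to 39.5 CPM on the control diet) and at 10 d (35.5 to 113 CPM on the folic acid diet, 50.9 to 78.3 CPM on the control diet).

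Diet values of the genes on either side ranged from -0.34 to 1.92. Of 12 further genes of the table within 1 Mb of the 4, 9 passed the filter on low counts. None of the 9 passed for diet over the 3 states by edgeR, where 0.35% of all genes tested passed, and 2 of the 9 had an unadjusted p under 0.05. Next to Sh3d19, Rps3a1, a ribosomal protein gene, differed by 0.04 ± 0.17 between diets, and Lrba, a vesicle trafficking gene, by -0.08 ± 0.11. On the Pet112 side the nearest tested gene, Fbxw7, the substrate receptor of a ubiquitin ligase, differed by 0.23 ± 0.11, and Tmem154 by 0.15 ± 0.25. Arfip1, at the far end, had the most negative value of the 9, -0.34 ± 0.15. Dclk2 (0.32 ± 0.73), Tigd4 (0.35 ± 0.54), Kirrel (-0.20 ± 0.39) and Cd1d1 (1.92 ± 0.93) had few reads and wide errors. The diet values of the 4 genes and of their neighbours were not compared by a test, because the choice of the 4 fixed them.

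**Figure D2:**
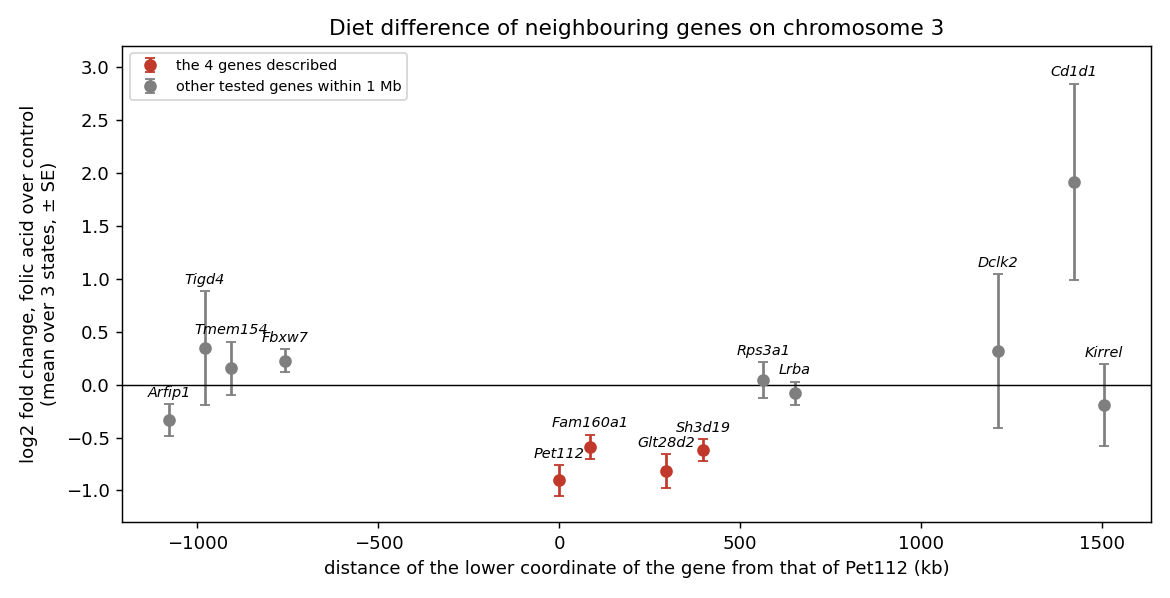
Log2 difference, folic acid over control (mean over the 3 states, ± SE from the fit over 23 libraries), of the 4 genes (red) and of the 9 other tested genes within 1 Mb (grey), by the distance in kb of each gene's lower coordinate from that of Pet112. The 4 genes lie between -0.90 and -0.59, and the closest tested neighbours on each side, Fbxw7 and Rps3a1, lie at 0.23 and 0.04.

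Among all 47 genes (0.35%) that passed for diet over the 3 states, 11 lay on chromosome 3, which holds 649 of the 13332 tested genes with a position. Besides the 4 described here these were Fabp5, S100a11, Pdzk1, Vav3, Slc39a8, Lphn2 and Gipc2. Chromosome 11 had the next highest number, 7 of its 1112 tested genes. Of all stretches of 0.4 Mb that start at one of the 47 genes, 1 held 4 of them, and it is the one described here. These counts include the genes chosen for their difference and are a description.

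The castration comparisons asked whether the 4 genes changed as the gland regressed, with both diets given equal weight. Their log2 differences from intact mice lay between -0.36 and 0.30. At 3 d none of the 4 passed by edgeR, DESeq2 or limma-voom, where edgeR called 24.2% of all genes (1 of the 4 had an unadjusted p under 0.05). Sh3d19 had a log2 difference from intact of 0.30 ± 0.13 at 3 d (edgeR's quasi-likelihood test, Benjamini-Hochberg adjusted p = 0.089), Glt28d2 of 0.12 ± 0.20 (adjusted p = 0.717), Fam160a1 of -0.03 ± 0.15 (adjusted p = 0.903) and Pet112 of -0.22 ± 0.18 (adjusted p = 0.419). The 95% intervals were 0.05 to 0.56 for Sh3d19, -0.27 to 0.51 for Glt28d2, -0.32 to 0.25 for Fam160a1 and -0.58 to 0.14 for Pet112. A change of 2-fold in either direction lay outside each of them on this scale, which holds the bulk of genes level. With library totals alone as the scale all 4 passed upwards at 3 d (0.55 for Pet112 to 1.05 for Sh3d19), where the median of all genes stood 0.77 higher. Without folic acid intact replicate 4, the intact folic acid library with the highest Sh3d19 level, Sh3d19 passed at 3 d (0.38, adjusted p = 0.0297).

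At 10 d 1 of the 4 genes passed, where edgeR called 33.2% of all genes. Fam160a1 was lower than in intact mice, with a log2 difference of -0.36 ± 0.14 (77.9% of the intact level, edgeR adjusted p = 0.0452). Its levels were 20.1 to 29.2 CPM at 10 d and 25.5 to 34.4 CPM in intact mice on the folic acid diet, and 22 to 47.8 CPM at 10 d and 36.1 to 55.2 CPM in intact mice on the control diet, which overlapped on both diets. The call was close to the threshold. It held when the library left out was control intact replicate 2, folic acid intact replicate 3, control 3 d replicate 3, folic acid 3 d replicates 2, 3 or 4, control 10 d replicate 1 or folic acid 10 d replicate 1, and it was lost when any of the other 15 was left out (adjusted p 0.0501 to 0.11). It was also lost without a filter on low counts (adjusted p = 0.0573) and without the 4 libraries set aside (-0.38, adjusted p = 0.0855). With library totals alone as the scale it turned to 0.82 (adjusted p = 6.64e-05), less than the 1.24 by which the median of all genes stood higher on that scale. Pet112 differed by -0.34 ± 0.18 at 10 d (adjusted p = 0.146), Glt28d2 by -0.14 ± 0.19 (adjusted p = 0.612) and Sh3d19 by 0.03 ± 0.13 (adjusted p = 0.885).

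Between 10 d and 3 d none of the 4 passed by edgeR, DESeq2 or limma-voom, where edgeR called 2.36% of all genes, and 2 of the 4 (Fam160a1 and Sh3d19) had an unadjusted p under 0.05. Fam160a1 differed by -0.33 ± 0.14, Sh3d19 by -0.27 ± 0.13, Glt28d2 by -0.26 ± 0.20 and Pet112 by -0.11 ± 0.18 (adjusted p 0.245 to 0.831, edgeR). The median of the 4 was 0.04 at 3 d, -0.24 at 10 d and -0.27 between the castrated states, against 0.01, 0.07 and 0.05 over all genes tested. On the separate diets, 10 d mice differed from intact mice in Pet112 by -0.56 ± 0.25 on the folic acid diet and by -0.11 ± 0.25 on the control diet. For Glt28d2 these values were 0.05 ± 0.27 on the folic acid diet and -0.33 ± 0.26 on the control diet, and Sh3d19 at 3 d differed from intact mice by 0.18 ± 0.18 on the folic acid diet and by 0.43 ± 0.19 on the control diet. Of the 9 tested neighbours, Tmem154 was higher at 3 d than in intact mice (0.85 ± 0.32, adjusted p = 0.0482), and no neighbour passed at 10 d or between 10 d and 3 d (3 and 1 with an unadjusted p under 0.05).

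**Figure D3:**
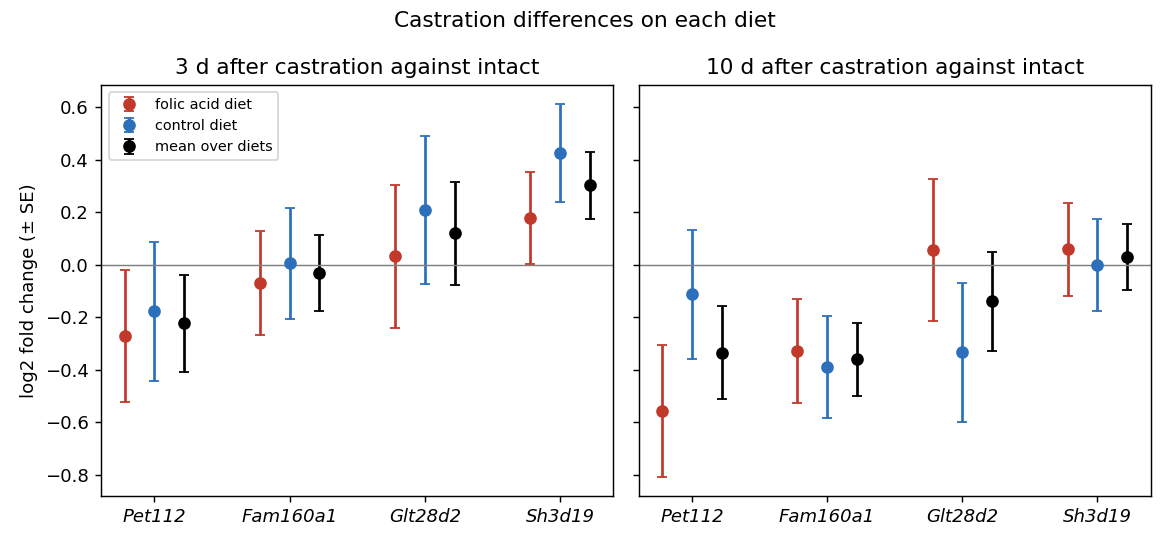
Log2 difference from intact mice (± SE) of each of the 4 genes at 3 d (left panel) and at 10 d (right panel) after castration, on the folic acid diet (red), on the control diet (blue) and as the mean over diets (black). The means over diets lie between -0.36 and 0.30, and that of Fam160a1 at 10 d is the one that passed the test.

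To see whether the 4 genes shifted together library by library, the mean of its group was taken from each library's log2 CPM, which removes diet and state, and the deviations that remain were correlated over the 23 libraries. The SD of the deviations was 0.351 for Pet112, 0.267 for Fam160a1, 0.367 for Glt28d2 and 0.261 for Sh3d19 (log2). Each was smaller than the gene's mean diet difference, a description only, since the genes were chosen for that difference. In 2 of the 23 libraries all 4 genes were below their group means and in 6 none was, while the other 15 libraries were mixed. These counts were not tested, and how often 4 unrelated genes would fall on the same side was not computed. Control 10 d replicate 2 had all 4 below, with deviations of -0.14 (Pet112), -0.60 (Fam160a1), -0.33 (Glt28d2) and -0.32 (Sh3d19). Folic acid 10 d replicate 2 was mixed, with Pet112 at -0.76 and Glt28d2 at -0.52 but Fam160a1 at -0.02 and Sh3d19 at 0.38.

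Of the 6 pairs of genes, none passed a two-sided permutation test (100000 permutations of libraries within groups, Benjamini-Hochberg over the 6 pairs). Fam160a1 and Sh3d19, which lie on either side of Glt28d2, had the highest correlation, with Pearson's r = 0.50 (permutation p = 0.0263, adjusted p = 0.158, 95% interval 0.05 to 0.79) and Spearman's rho = 0.55 (permutation p = 0.0166, adjusted p = 0.0994). They deviated to the same side in 17 of 23 libraries, and r was 0.48 without the 2 libraries in which Fam160a1 was farthest from its median (permutation p = 0.0836). In every pair the 2 libraries were picked by the gene with the lower coordinate alone, so outlying libraries of the other gene could remain. Fam160a1 and Sh3d19 passed under 2 other settings, with library totals alone as the scale (r = 0.73, adjusted permutation p = 0.00336) and with a replicate block (r = 0.68, adjusted permutation p = 0.00294). Library totals do not hold the bulk of genes level between libraries. No background of r over all genes was computed on that scale, so this pass says little about the pair itself. Pet112 and Glt28d2 had r = 0.41 (permutation p = 0.19, adjusted p = 0.285) and rho = 0.44 (permutation p = 0.112), with r = 0.36 without 2 libraries and 0.23 to 0.53 when 1 was left out. They deviated to the same side in 13 of 23 libraries. The genes that lie closest, Pet112 and Fam160a1, had r = 0.30 (permutation p = 0.123, adjusted p = 0.285), rho = 0.39 (permutation p = 0.0971) and r = 0.28 without 2 libraries. The same side was taken in 16 of 23 libraries. Fam160a1 and Glt28d2 had r = 0.33 (permutation p = 0.155, adjusted p = 0.285) and rho = 0.34 (permutation p = 0.159), and without 2 libraries r was 0.12. Sh3d19 and Pet112 had r = -0.08 (permutation p = 0.822, adjusted p = 0.822), rho = 0.06 (permutation p = 0.847) and r = -0.02 without 2 libraries. Leaving out 1 library moved it between -0.31 (without folic acid intact replicate 3) and 0.23 (without folic acid 10 d replicate 2). The pair of Glt28d2 and Sh3d19, whose start regions both hold GGGCGG, had r = -0.24 (permutation p = 0.393, adjusted p = 0.471), rho = -0.10 (permutation p = 0.724) and r = -0.23 without 2 libraries. Its sign was not stable: r was 0.04 without the 4 libraries set aside and 0.20 in control libraries alone, and it ran from -0.37 to -0.07 when 1 library was left out, -0.07 without folic acid intact replicate 4. Apart from that of Fam160a1 and Sh3d19, the 95% intervals included 0 and were wide, such as -0.19 to 0.68 for Pet112 and Fam160a1 and -0.64 to 0.25 for Glt28d2 and Sh3d19.

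**Figure D4:**
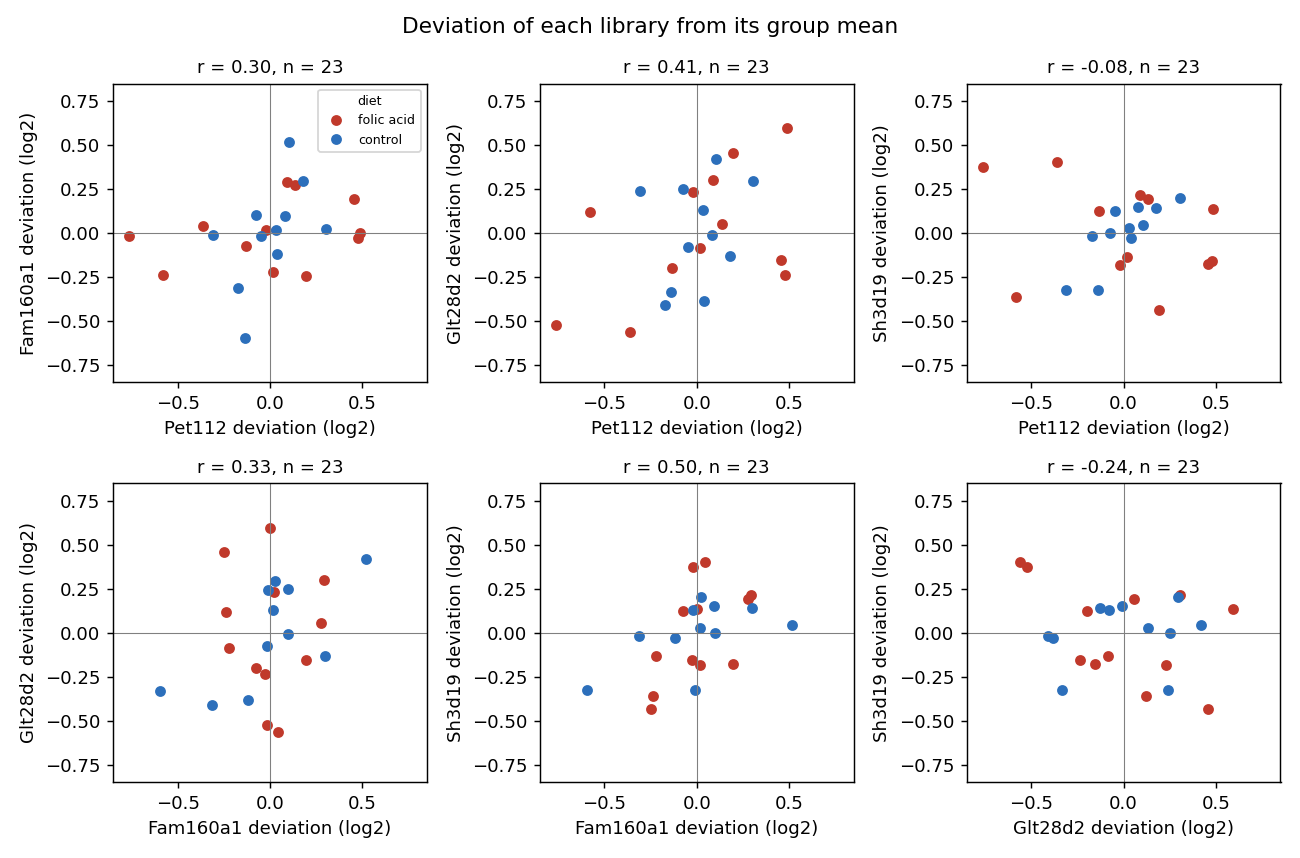
Deviation of each library from its group mean (log2 CPM) for each of the 6 pairs of genes, 1 point per library (folic acid red, control blue, n = 23), with Pearson's r above each panel. The points of Fam160a1 and Sh3d19 follow each other most (r = 0.50), and those of Glt28d2 and Sh3d19 do not (r = -0.24).

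Within each diet the order of the pairs was not the same. Fam160a1 and Sh3d19 had r = 0.55 over the 12 folic acid libraries and 0.56 over the 11 control libraries (adjusted permutation p = 0.493 and 0.264). Pet112 and Sh3d19 had r = -0.30 over folic acid libraries (adjusted permutation p = 0.557) and 0.81 over control libraries (adjusted permutation p = 0.0702). Fam160a1 and Glt28d2 had r = -0.05 over folic acid libraries and 0.69 over control libraries (adjusted permutation p = 0.885 and 0.0887). As background, r with any of the 13411 other genes tested was also compared. Sh3d19 took place 543 for Fam160a1, where 4.05% of genes had an r at least as high, Glt28d2 took place 1036 for Pet112 (7.73%), and Fam160a1 took place 2233 for Pet112 (16.7%). For Fam160a1, Glt28d2 took place 2192 (16.3%). Seen from the other gene of each pair, Fam160a1 took place 828 for Sh3d19 (6.17%) and Pet112 took place 665 for Glt28d2 (4.96%). Likewise Pet112 took place 2518 for Fam160a1 (18.8%), and Fam160a1 took place 1367 for Glt28d2 (10.2%). The pairs with negative r stood far lower, with Sh3d19 at place 8906 for Pet112 (66.4%) and at place 10483 for Glt28d2 (78.2%). The genes most like each of the 4 lay on other chromosomes, apart from Slc25a24. For Pet112 they were Alg1 (r = 0.80), Asrgl1 (0.77) and Slc25a11 (0.77), and for Fam160a1 they included Sema4b (0.81) and Ankrd13a (0.80). For Glt28d2 they were Ip6k2 (0.81), Ercc2 (0.77) and Zfyve27 (0.73), and for Sh3d19 they were Sh3pxd2a (0.83), Mboat1 (0.82) and Slc25a24 (0.79), each over 23 libraries that share their scaling.

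Measures of the libraries were set beside the deviations. Among 28 relations with marker sums, total count, TMM factor and the share of Sbp, none passed after adjustment. Where 2 libraries were left out here, they were the farthest from the median in the measure. Sh3d19 deviated upwards in libraries with a higher TMM factor (r = 0.61, permutation p = 0.0136, adjusted p = 0.199, and rho = 0.53, permutation p = 0.0316) and a lower share of Sbp (r = -0.59, permutation p = 0.0142, adjusted p = 0.199, and rho = -0.50, permutation p = 0.0338), and r was 0.34 and -0.43 without the 2 farthest libraries. Fam160a1 had r = 0.42 with the TMM factor (permutation p = 0.0296, adjusted p = 0.276) and rho = 0.49 (permutation p = 0.0263), and r was 0.60 without the 2 farthest libraries. Pet112 and Glt28d2 had r = -0.30 and -0.40 with it (permutation p = 0.364 and 0.136). When the TMM factor was also removed from the deviations, an alternative chosen after seeing the data, r of Fam160a1 and Sh3d19 was 0.34 (adjusted permutation p = 0.242). On that scale r of Pet112 and Fam160a1 was 0.50, and r of Fam160a1 and Glt28d2 was 0.60 (adjusted permutation p = 0.0488 for both).

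Lists of genes, 1 for each of the 4, were followed in the same comparisons. They were set up around the complex, pathway or protein group of the gene product or its relative. None of the 60 tested genes on the 4 lists passed for diet over the 3 states by edgeR. Of all genes tested 0.35% did, so that 0 of 60 says little about the lists. An unadjusted p under 0.05 was found for 5 of the 60. For the mitochondrial glutamine tRNA route of Pet112, 1 of 13 genes was lower at 3 d and 3 of 13 at 10 d, and none was higher, where 13.3% and 16.4% of all genes tested were lower and 10.9% and 16.8% higher. Gatc, which encodes another subunit of GatCAB, differed by -0.57 ± 0.18 at 10 d (adjusted p = 0.0129). Qrsl1, the gene of the A subunit, differed by -0.12 ± 0.19 at 3 d and 0.18 ± 0.18 at 10 d (adjusted p = 0.696 and 0.467). The other 2 were cytosolic: Eprs, the glutamyl-prolyl tRNA synthetase, differed by -0.52 ± 0.12 at 3 d and -0.80 ± 0.11 at 10 d, and Qars, the glutaminyl tRNA synthetase, by -0.51 ± 0.11 at 10 d. For the FTS, Hook and FHIP group of Fam160a1, 2 of 10 genes were higher and 1 lower at 3 d, and 1 was higher and 2 lower at 10 d. Hook1 was lower at both times (-0.43 ± 0.14 and -0.67 ± 0.13) while Hook3 was higher (0.40 ± 0.12 and 0.35 ± 0.11), and Aktip, the gene of FTS, was lower at 10 d (-0.39 ± 0.11).

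The dolichol-linked oligosaccharide pathway, to which the relative of Glt28d2 belongs, had 7 of 20 genes lower at 3 d and 10 of 20 at 10 d, and none higher. Of all genes tested 13.3% were lower and 10.9% higher at 3 d, and 16.4% were lower and 16.8% higher at 10 d. Its median was -0.40 at 3 d and -0.48 at 10 d, against 0.01 and 0.07 over all genes. Alg5, which makes dolichol phosphate glucose, had a mean of 148 CPM in intact mice, 68.2 CPM at 3 d and 67.6 CPM at 10 d (-1.19 ± 0.12 at 3 d, adjusted p = 4.2e-09). Alg3, a mannosyltransferase, had 17.3 CPM in intact mice, 8.03 CPM at 3 d and 5.80 CPM at 10 d (-1.62 ± 0.23 at 10 d, adjusted p = 1.03e-06). Dpagt1, which starts the pathway, differed by -0.70 ± 0.16 at 3 d and -1.35 ± 0.15 at 10 d. Alg1, another mannosyltransferase, differed by -0.82 ± 0.17 at 3 d and -0.75 ± 0.16 at 10 d. For the ADAM and SH3 group of Sh3d19, 4 of 17 genes were higher and 1 lower at 3 d, and 5 were higher and 1 lower at 10 d. The share of all genes tested that was higher was 10.9% at 3 d and 16.8% at 10 d. Cd2ap, an adaptor of the actin cytoskeleton, was higher (0.84 ± 0.14 at 3 d), and Sh3gl1, an endocytic adaptor, was lower (-0.69 ± 0.20). Adjusted p values are by edgeR's quasi-likelihood test. These directions are relative to the bulk of genes: with DESeq2's size factors the counts were the same, but with library totals alone the medians of the 4 lists turned to between 0.37 and 1.04 at 3 d and between 0.70 and 1.56 at 10 d, where the median of all genes was 0.77 and 1.24. Without the 4 libraries set aside, the dolichol list had 7 genes lower at both times, and the ADAM and SH3 list had 2 higher at both times.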

How the data were processed

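RNA of the ventral prostate was sequenced in 23 libraries, taken as 1 mouse each since the labels speak of 4 mice per group; where mice share a litter, p-values measure the spread between these mice. The deposited table holds the authors' expected counts per gene (estimated numbers of reads, not scaled between libraries). Per the submitters' processing notes, RSEM 1.2.3, Bowtie 0.12.9 and bcl2fastq 2.17.1.14 were used with the build mm10. The sources used here give no read length, strand setting or gene annotation. The table has 1 column more than there are labelled samples (it is named for the control diet at 3 d), and this column was left out.

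Expected counts were rounded to whole numbers. Genes were filtered with filterByExpr (minimum count 10, minimum total 15), which left 13412 of 20308, and scaled with TMM factors. In R 4.3.3, edgeR 4.0.16 fitted a robust quasi-likelihood model with a mean for each group and all 23 libraries. It tested 3 castration contrasts averaged over diets, with Benjamini-Hochberg adjustment over all 13412 genes and a threshold of 0.05. For diet, calls over all genes were counted, and the 4 genes are given by log2 differences with standard errors, with no test of their own. The biological coefficient of variation was 0.364. Deviations from group means used log2 CPM with a prior count of 2, and correlations were tested by permuting libraries within groups. The fit and the correlation test were tested on simulated data. Alternatives were DESeq2 1.42.0, limma-voom (limma 3.58.1), other scalings and filters, a replicate block and leaving out each library. Intervals have a confidence level of 95%.

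The 4 genes, their gene lists and the markers were chosen with earlier results of these data known. Named besides the 4 were tested neighbours, the 3 genes with the highest r for each of the 4, and up to 4 genes per list with the smallest p. A result of 1 gene is not reported here. Qrsl1, and the neighbours and chromosome 3 genes named for diet, were named after their values were seen. Gene positions are from GENCODE M21 on GRCm38, in which 20208 of the 20308 symbols were found.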

Additional observations from a re-analysis of the deposited data

How the results depend on the processing

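The diet differences of the 4 genes kept their sign in all 448 recomputed values (leave-one-out fits, other scalings, no filter, a replicate block, and without 4 libraries). The genes were chosen for these differences and the fits share most of their libraries, so this is a description and no evidence about the genes. With library totals alone as the scale, 8406, 10997 and 4446 genes were called at 3 d, at 10 d and between 10 d and 3 d, split 8050 higher and 356 lower, 10691 and 306, and 4385 and 61. With TMM factors the splits were 1468 and 1779, 2249 and 2203, and 99 and 218. On library totals the median gene stood 0.77, 1.24 and 0.46 higher (log2), all 4 genes passed upwards at 3 d (0.55 to 1.05) and at 10 d (0.82 to 1.21), and Fam160a1 at 10 d turned from -0.36 to 0.82. Between 10 d and 3 d, DESeq2 called 592 genes, and 172 were called without the 4 libraries set aside, against 317. Leaving out 1 library gave 202 to 442 genes there, the lowest without folic acid 3 d replicate 4 (202), control 10 d replicate 1 (205) and control 10 d replicate 2 (211), 2731 to 3425 at 3 d and 4046 to 4520 at 10 d. The causes were not tested.

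Correlation of Fam160a1 and Sh3d19 passed with library totals (r = 0.73, adjusted permutation p = 0.00336), a scale that does not hold the bulk of genes level. It also passed with a replicate block (r = 0.68, adjusted permutation p = 0.00294). With the TMM factor removed, Pet112 and Fam160a1 (r = 0.50) and Fam160a1 and Glt28d2 (r = 0.60) passed. The p-values of these last 2 settings are approximate because residuals were permuted. All 138 leave-one-out correlations stayed on their side of the threshold. Among 55 same-numbered pairs of samples the correlation of deviations ran from -0.15 to 0.24 (median 0.01), with 5 over 0.1. The median was -0.01 for pairs with different numbers. These values cannot tell whether samples with the same number shared a batch or litter. The block changed no other call of the 4 genes. Depth limits Glt28d2 most, with as few as 33 reads in a library. DESeq2 and limma-voom were run for the castration comparisons alone.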

Other observations

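The levels of the 4 genes were checked in each of the 20 combinations of gene and group with 4 libraries for a library far from the other 3 (Dixon's criterion), and 0 were found.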
